A study of Mus musculus with 12 samples.

Results

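Mitochondrial fatty acid beta-oxidation was followed through the mRNAs of 10 enzymes in Sp37A3 cells, a mouse dendritic cell (DC) line derived from spleen. The genes are Cpt1a, Cpt2, Acadvl, Acadl, Acadm, Echs1, Hadh, Acaa2, Hadha and Hadhb. They were listed as enzymes of the pathway out of 55401 genes in the count table. Hadh was also chosen by its measured counts, which are close to 0 in all libraries of one line, so its difference between the lines is given as a description without a test. All 10 were among the 14079 genes that passed the filter on low counts (2 or more libraries with a log2 CPM over 0, where CPM are counts scaled to library size). Hadh passed it only through the libraries of one line.

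RNA sequencing covered CtrV cells, which carry an empty vector and express Siglec-E, and EKO cells, labelled as Siglec-E knockout. According to the methods, the EKO line joins several clones in which CRISPR-Cas9 was directed at the gene Siglece. Siglec-E is an inhibitory receptor for sialic acids. Both lines were grown with GM-CSF and M-CSF. Each was either left unpulsed or pulsed with ovalbumin (OVA) at 0.1 mg/ml for 2 h, and cells of all groups were stimulated with LPS for 24 h. The LPS dose, 0.1 µg/ml, is given for the pulsed cells. Each of the 4 groups held 3 libraries, numbered as replicates 1, 2 and 3. Nothing states that they came from separate cultures, so p-values measure the spread between these libraries, which may be technical.

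Library totals lay between 27116201 and 39698572 counts, and the detection limit, set at 3 counts, equalled 0.0785 to 0.110 CPM. Siglece mRNA was not lower in the libraries labelled EKO, at 166 to 235 CPM against 150.2 to 163 CPM in CtrV libraries. The libraries labelled EKO are therefore called EKO-labelled throughout. The paper reports that the clones were screened for Siglec-E and that those pooled had little or none of it. The mRNA level does not measure the protein, so it does not decide whether the knockout succeeded. All 10 DC markers were detected, with a sum of 24093 to 26432 CPM over the 12 libraries, most of it Cd74 (15524 to 17265 CPM by group mean). Single DC markers differed between the lines (edgeR, adjusted p under 0.05). EKO-labelled cells had 4 higher and 2 lower without OVA, and 5 higher and 2 lower with OVA, where 46.4% and 47.0% of all genes passed. Among these markers, in unpulsed CtrV and EKO-labelled cells, were Irf8 at 92.0 and 198.4 CPM, Batf3 at 3.45 and 8.66 CPM, and H2-Ab1 at 2970 and 4294 CPM. The 2 lower ones in unpulsed cells were Ciita at 829.6 and 635.6 CPM and Itgax at 961.5 and 844.8 CPM. Batf3 was at 13.3, 6.96 and 5.72 CPM in replicates 1, 2 and 3 of unpulsed EKO-labelled cells. Flt3, called only with OVA, was at 7.35, 2.25 and 4.4 CPM in OVA-pulsed ones. The T cell and fibroblast markers had at most 3 counts in any library. The 3 B cell markers summed to 0.0358 to 0.212 CPM in CtrV and 0.45 to 1.07 CPM in EKO-labelled libraries, with Cd79a at 3 counts or fewer, and the 2 NK cell markers to 0.179 to 0.486 CPM over all libraries. The 6 macrophage markers summed to 1482 to 1706 CPM in CtrV and 2082 to 2496 CPM in EKO-labelled libraries, and the 4 leukocyte markers to 1330 to 1409 and 1607 to 1812 CPM. Of the 3 epithelial markers, whose sum was 578 to 659 CPM in CtrV and 179 to 208 CPM in EKO-labelled libraries, Krt8 had at most 3 counts and Cdh1 made up most. The part of these markers in the differences below was not tested. Replicate 1 of the EKO-labelled cells stood apart from replicates 2 and 3 in some genes, among them Siglece, at 166 and 174 CPM against 202 to 235 CPM, and values without it are given for Acadl, Cd36 and Plin2.

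In beta-oxidation a fatty acid is shortened inside the mitochondrion, a pair of carbons at a time, and each round yields acetyl-CoA and reduced electron carriers. Long chains first cross the inner membrane as carnitine esters. Cpt1a, on the outer membrane, makes the acyl-carnitine, and Cpt2 returns the acyl group to CoA inside. Each round then consists of a dehydrogenation, a hydration, a second dehydrogenation and a thiolytic cleavage. Acadvl, Acadl and Acadm carry out the first step on very long, long and medium chains. Echs1 hydrates short chains, Hadh oxidises short and medium-chain 3-hydroxyacyl-CoA, and Acaa2 is a thiolase. For long chains, Hadha and Hadhb form the trifunctional protein of the inner membrane, which combines the last 3 steps. In DCs and macrophages, LPS is known to shift energy metabolism towards glycolysis.

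The sequences before the RefSeq starts of Hadh, Cpt1a and Acadl are shown because these genes had, in that order, a near absence, a fall and a rise in EKO-labelled cells. They come from the GRCm38.p6 assembly, lie in no exon annotated by GENCODE and are given on the strand of the gene. The last base lies 1 base before the RefSeq start in Hadh and Acadl and 17 bases before it in Cpt1a. The Cpt1a stretch lies inside the GENCODE gene, which begins at 3322334 with the exon of another transcript. Capitals mark matches on either strand to the GC box (GGGCGG), the CCAAT box (CCAAT) and the nuclear receptor motif AGGTCA.
Hadh, chr3:131272102-131272351, minus strand: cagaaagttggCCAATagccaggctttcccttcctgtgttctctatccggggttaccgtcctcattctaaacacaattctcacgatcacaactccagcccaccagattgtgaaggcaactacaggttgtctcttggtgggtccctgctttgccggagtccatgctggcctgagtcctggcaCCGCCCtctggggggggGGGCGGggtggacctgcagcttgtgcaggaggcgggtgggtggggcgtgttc
Cpt1a, chr19:3323051-3323284, plus strand: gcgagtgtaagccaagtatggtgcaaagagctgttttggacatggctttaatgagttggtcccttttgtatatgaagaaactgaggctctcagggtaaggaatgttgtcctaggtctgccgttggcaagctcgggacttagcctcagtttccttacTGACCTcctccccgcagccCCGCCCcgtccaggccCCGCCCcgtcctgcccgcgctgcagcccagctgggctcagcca
Acadl, chr1:66863310-66863559, minus strand: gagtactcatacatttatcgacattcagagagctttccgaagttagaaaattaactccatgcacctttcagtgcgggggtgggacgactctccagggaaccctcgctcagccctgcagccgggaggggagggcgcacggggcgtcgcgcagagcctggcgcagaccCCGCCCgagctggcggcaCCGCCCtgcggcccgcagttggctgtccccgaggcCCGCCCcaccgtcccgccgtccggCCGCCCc

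Windows of 300 bases around the start, the 50 bases after it included, were searched for 9 of the 10 enzymes. The enzyme left out was Acaa2, so the counts below do not cover it. The GC box was in 7 of the 9 windows and in 35.7% of all 32851 RefSeq promoter windows. The motif AGGTCA was in 4 of 9, those of Acadm, Acadvl, Cpt1a and Echs1, and in 16.3% of all windows. The CCAAT box was in 2 of 9, those of Cpt1a and Hadh, and in 37.4%. No window of the 9 held a direct repeat of AGGTCA with any 1 base between the copies, the element of PPAR receptors, which 0.0396% of all windows held. None held the ERR element TNAAGGTCA (1.28%), the E-box CACGTG (7.15%) or the TATA box TATAAA (13.6%). The motif AGGTCA is part of the direct repeat and of the ERR element. A match describes letters in this window and is no evidence of binding. The Acadl window had 70.3% G and C, above 90.9% of all promoter windows, and the Hadh window 63.0%. Hadha and Hadhb lie head to head on chromosome 5, with the start of Hadha at 30155162 on the minus strand and that of Hadhb at 30155248 on the plus strand (GRCm38).

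Hadh was close to absent from EKO-labelled cells. The gene occupies bases 131233419 to 131272101 of chromosome 3 (minus strand, GRCm38), and its principal transcript has 8 exons and 1789 bases. The unpulsed CtrV libraries held 303, 327 and 324 Hadh counts, and the OVA-pulsed CtrV libraries 343, 319 and 325. Unpulsed EKO-labelled libraries held 0, 0 and 1 counts, and OVA-pulsed ones 3, 1 and 1. The lowest CtrV library, at 9.27 CPM, stood far above the highest EKO-labelled library, at 0.0785 CPM, and no EKO-labelled library exceeded the detection limit of 3 counts.

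In CPM, Hadh was at 11.2 ± 0.515 (SD, n = 3) in unpulsed and 9.89 ± 0.786 in OVA-pulsed CtrV cells. Over all 6 libraries of each line, 6 counts stood against 1941, a ratio of 0.299% after scaling to library size (95% exact interval 0.11 to 0.651%, which covers counting error only). The ratio was 0.0992% (0.0025 to 0.554%) in unpulsed and 0.499% (0.16 to 1.17%) in OVA-pulsed cells, and these intervals overlap. These values chose the gene and support nothing further. In bulk libraries, fewer cells with the mRNA and less of it per cell cannot be told apart.

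The 3 tested genes on each side of Hadh were detected in both lines. They lie between 293 and 1388 kb away, and genes between them that failed the filter on low counts were not examined. The nearest tested genes, 303 kb and 293 kb away, are Gm5855 and Papss1, which makes the sulfate donor PAPS. Papss1 was at 47.6 ± 0.723 CPM in unpulsed CtrV and 38.3 ± 3.04 CPM in unpulsed EKO-labelled cells, a log2 difference of -0.31 (SE 0.06, adjusted p = 0.0015 by edgeR's quasi-likelihood test). Gm5855 was lower by a log2 difference of -0.63 (SE 0.14, adjusted p = 0.0041) without OVA. On the far sides, Rpl34 (a ribosomal protein, of a family with many pseudogene copies, so that its value is uncertain), Gm43351, Gm9402 and Aimp1 (a tRNA synthetase cofactor) had log2 differences of -0.16, 0.81, -0.15 and -0.02 without OVA. Of these, Rpl34 (adjusted p = 0.044) and Gm43351 (adjusted p = 0.0025) passed without OVA, where 46.4% of all genes did. With OVA, where 47.0% of all genes passed, Rpl34 did not (log2 difference -0.06, edgeR adjusted p = 0.44). Papss1 (-0.31, adjusted p = 0.0013), Gm5855 (-0.52, adjusted p = 0.0093) and Gm43351 (0.82, adjusted p = 0.0022) passed with OVA, and Gm9402 and Aimp1 passed in neither condition. By the mean of the percentages of single libraries, which differs from the ratio of summed counts above, unpulsed EKO-labelled cells held 0.0912% of the CtrV mean for Hadh. OVA-pulsed ones held 0.476%.

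**Figure D1:**
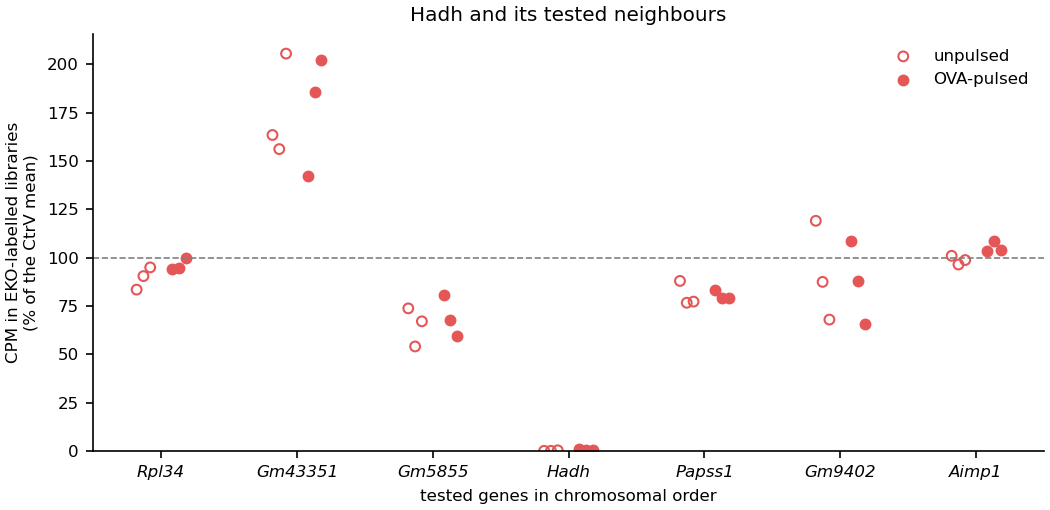
Level in each EKO-labelled library, as percent of the mean of the CtrV libraries with the same pulsing, for Hadh and the 3 tested genes on each side of it in chromosomal order (open points unpulsed, filled points OVA-pulsed, n = 3 each, dashed line 100%). Hadh sits at 0 to 0.793%, and each neighbour is above 50%.

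The genes with the most similar pattern to Hadh, by Pearson correlation of log2 CPM over the 12 libraries, were Hnmt (0.9983), Sh3kbp1 (0.9983), Rtl8b (0.9976), Rab37 (0.9968) and Susd1 (0.9965). They were chosen for this likeness, and the libraries form a pair of separate clusters by line. Hnmt, which inactivates histamine, was at 5.35 to 6.16 CPM in CtrV and 0 to 0.0307 CPM in EKO-labelled libraries. Sh3kbp1, an adaptor protein, was at 60.5 to 81.0 and 0.0733 to 0.157 CPM. Rab37, Rtl8b and Susd1 stayed measurable in EKO-labelled libraries, at 1.52 to 2.28, 3.84 to 4.44 and 57.8 to 65.0 CPM. With limits set after the values of Hadh were seen, 3 of 10652 genes with at least 5 CPM in every CtrV library had at most 3 counts in every EKO-labelled library, namely Hadh, Hnmt and Prelid2. In the opposite direction 0 of 10685 genes did. No enzyme of beta-oxidation other than Hadh was among them.

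**Figure D2:**
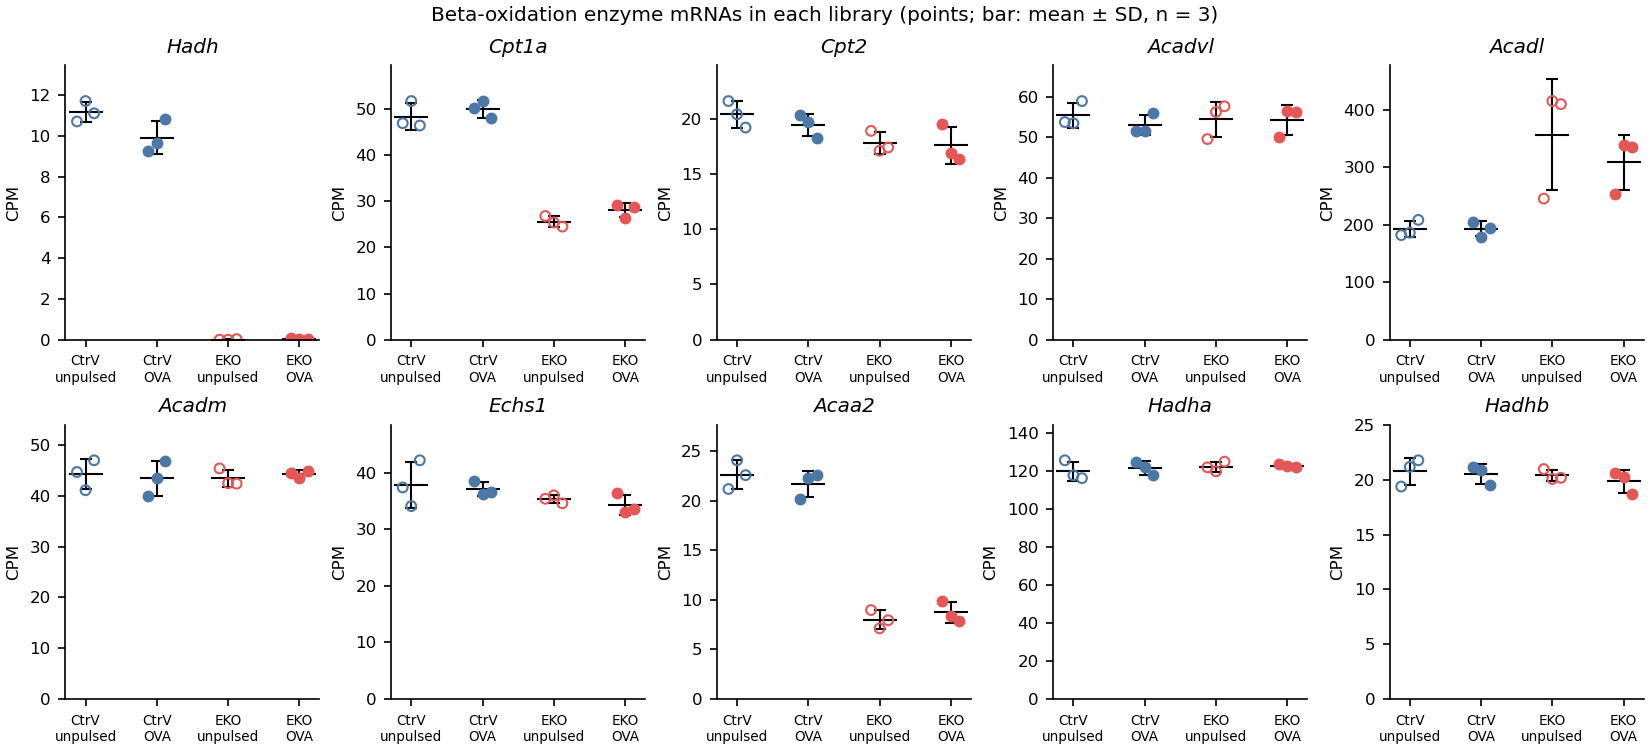
CPM of the 10 enzyme mRNAs in each library (points), with mean and SD for the 4 groups (n = 3 each), on axes that start at 0. Hadh is near 0 in EKO-labelled cells, Cpt1a and Acaa2 are lower, Acadl is higher with replicate 1 below replicates 2 and 3, and the 4 groups of Acadvl, Acadm, Echs1, Hadha and Hadhb lie at similar heights.

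Apart from Hadh, 4 of 9 enzymes differed between the lines without OVA, 1 higher and 3 lower, and the same numbers held with OVA. Acadl was higher, and Cpt1a, Acaa2 and, by a small margin, Cpt2 were lower. This count is near the background, since 46.4% of all genes tested passed the same threshold (adjusted p under 0.05 by edgeR) without OVA and 47.0% with OVA. Genes that were lower made up 21.9% of all genes in each comparison, and genes that were higher 24.5% without and 25.1% with OVA. The libraries of the lines did not overlap for 4 of the 9 enzymes without OVA, against 47.1% of all genes, and for 3 of 9 with OVA, against 52.9%. The median log2 difference of the 9 enzymes was -0.03 without and -0.05 with OVA, against 0.00 over all genes. The unpulsed and the OVA-pulsed comparison use different libraries, but the same lines and the same fit. Unpulsed and OVA-pulsed libraries of the same number deviated together in EKO-labelled cells (correlations 0.711, 0.357 and 0.424), and less so in CtrV cells (0.0893, 0.185 and 0.385). The comparisons are therefore not independent of each other.

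Cpt1a, the rate-controlling carnitine palmitoyltransferase of the outer membrane, fell. It spans chromosome 19 from 3322334 to 3385733. Its level was 46.9, 51.7 and 46.4 CPM in unpulsed CtrV libraries and 26.8, 25.4 and 24.5 CPM in unpulsed EKO-labelled libraries. With OVA it was 50.2, 51.7 and 48.0 against 29.1, 26.4 and 28.7 CPM. The lines did not overlap in either condition. The log2 difference was -0.92 (SE 0.06, edgeR adjusted p = 1.1e-06) without OVA and -0.83 (SE 0.06, adjusted p = 1.9e-06) with OVA, so EKO-labelled cells kept 0.529 and 0.562 of the CtrV level. It was negative in all 3 same-numbered pairs of each condition, between -1.02 and -0.74.

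Cpt2, the inner-membrane partner of Cpt1a, was lower by much less. It was at 21.6, 20.4 and 19.2 CPM in unpulsed CtrV libraries and at 18.9, 17.1 and 17.4 CPM in unpulsed EKO-labelled libraries. With OVA it was at 20.3, 19.7 and 18.3 against 19.5, 16.9 and 16.4 CPM, and these groups overlapped. The log2 difference was -0.20 (SE 0.06, edgeR adjusted p = 0.015) without OVA and -0.15 (SE 0.05, adjusted p = 0.048) with OVA. Of 22 alternatives, fits with libraries left out included, 5 lost the call without OVA and 15 lost it with OVA. With the replicate block left out of the fit, the adjusted p was 0.078 and 0.18, and by DESeq2 it was 0.064 and 0.17. Without OVA the call was also lost without EKO-labelled replicate 2 (adjusted p = 0.064). With OVA it was lost in 9 of 13 fits with libraries left out, namely those without CtrV unpulsed replicate 1, any OVA-pulsed CtrV replicate, any unpulsed EKO-labelled replicate or OVA-pulsed EKO-labelled replicates 2 or 3 (adjusted p = 0.056 to 0.15).

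Of the acyl-CoA dehydrogenases, only Acadl rose among the 3 listed. Acadl, on chromosome 1 from 66830839 to 66863277, was at 182, 186 and 208 CPM in unpulsed CtrV libraries. In unpulsed EKO-labelled libraries it was at 245, 415 and 409 CPM. With OVA the values were 205, 179 and 195 CPM in CtrV and 253, 338 and 334.5 CPM in EKO-labelled cells. Each EKO-labelled library lay above each CtrV library of its condition, and replicate 1 lay well below the other EKO-labelled replicates, at 0.595 of their mean without OVA and 0.754 with OVA. For the 8 other enzymes apart from Hadh this ratio was between 0.871 and 1.22.

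The log2 difference of Acadl was 0.87 (SE 0.15, edgeR adjusted p = 6.9e-04) without OVA and 0.66 (SE 0.15, adjusted p = 0.0038) with OVA. Within pairs of the same number it was 0.43, 1.16 and 0.97 without OVA and 0.30, 0.92 and 0.78 with OVA. Without replicate 1 of both EKO-labelled groups it was 1.11 and 0.81. Over all fits with libraries left out it lay between 0.74 and 1.11 without and between 0.53 and 0.85 with OVA, with adjusted p of at most 0.0068 and 0.031.

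Acadvl and Acadm, which act on very long and on medium chains, did not pass the test. Acadvl was at 55.4 ± 3.08 CPM in unpulsed CtrV and 54.5 ± 4.3 CPM in unpulsed EKO-labelled cells (n = 3 each), and its log2 differences were -0.02 (SE 0.05, edgeR adjusted p = 0.73) and, with OVA, 0.03 (SE 0.05, adjusted p = 0.64). Acadm was at 44.3 ± 2.97 and 43.4 ± 1.73 CPM without OVA, with log2 differences of -0.03 (SE 0.06, adjusted p = 0.75) and 0.03 (SE 0.06, adjusted p = 0.75). The groups overlapped for both genes. Of the exonic bases of Acadvl, 42.9% overlap Dvl2 on the opposite strand, and whether the counting used strand is not stated. Dvl2 was at 10.5 to 15.8 CPM over all libraries, with means of 14.1 CPM in unpulsed CtrV and 11.7 CPM in unpulsed EKO-labelled cells. Its log2 difference was -0.27 (edgeR adjusted p = 0.018) without OVA and -0.18 (adjusted p = 0.08) with OVA. The part of Dvl2 reads in the Acadvl value was not tested. Acadm has a processed pseudogene, Gm5131, with 93.5% identity over 681 bases and 1.24 to 1.99 CPM.

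Echs1, the short-chain enoyl-CoA hydratase, was at 37.9 ± 4.09 CPM in unpulsed CtrV and 35.3 ± 0.725 CPM in unpulsed EKO-labelled cells. With OVA it was at 37.1 ± 1.25 and 34.4 ± 1.79 CPM. Its log2 differences of -0.10 (SE 0.07, edgeR adjusted p = 0.28) and -0.11 (SE 0.07, adjusted p = 0.21) did not pass the test.

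Acaa2, the thiolase on chromosome 18 from 74779197 to 74806208, had the largest fall among the enzymes with a test. Unpulsed CtrV libraries held 21.2, 24.1 and 22.6 CPM and unpulsed EKO-labelled libraries 8.98, 7.13 and 7.95 CPM. With OVA the values were 20.2, 22.3 and 22.6 against 9.94, 8.36 and 7.9 CPM. The lines were far apart in both conditions. The log2 difference was -1.50 (SE 0.11, edgeR adjusted p = 1.7e-06) without and -1.31 (SE 0.11, adjusted p = 3.5e-06) with OVA, and EKO-labelled cells kept 0.354 and 0.404 of the CtrV level.

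The subunits of the trifunctional protein, which combines the last 3 steps for long chains, showed no difference that passed the test. Hadha was at 126, 118 and 116 CPM in unpulsed CtrV and at 122, 119.8 and 125 CPM in unpulsed EKO-labelled libraries, and with OVA at 125, 122 and 118 against 124, 123 and 122 CPM. Its log2 differences were 0.03 (SE 0.05, edgeR adjusted p = 0.63) and 0.01 (SE 0.05, adjusted p = 0.8). Hadhb was at 20.8 ± 1.28 and 20.4 ± 0.47 CPM without OVA and at 20.5 ± 0.921 and 19.9 ± 1.01 CPM with OVA, with log2 differences of -0.03 (SE 0.07, adjusted p = 0.78) and -0.05 (SE 0.07, adjusted p = 0.57).

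The Hadhb value is uncertain because reads can be placed on near-identical copies. Its processed pseudogenes Gm13910 and Gm9108 are 99.8% identical over 1428 bases and 97.6% identical over 1426 bases, and the authors' alignment kept a single location for reads with equally good ones. Gm13910 was at 42.7 to 53.1 CPM, above Hadhb itself, and Gm9108 at 2.72 to 3.77 CPM. Hadhb held 27.5 to 30.8% of the sum of all 3. That sum was 73.3 ± 4.22 CPM in unpulsed CtrV and 69.1 ± 3.6 CPM in unpulsed EKO-labelled cells, and 70.9 ± 2.52 against 71.0 ± 3.44 CPM with OVA. Hadh, Cpt1a, Cpt2, Acadl and Acaa2 had no annotated transcript of another gene with at least 90% identity over 200 bases. None of their exons overlapped an exon of another gene, and genes within their introns were not looked for.

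**Figure D3:**
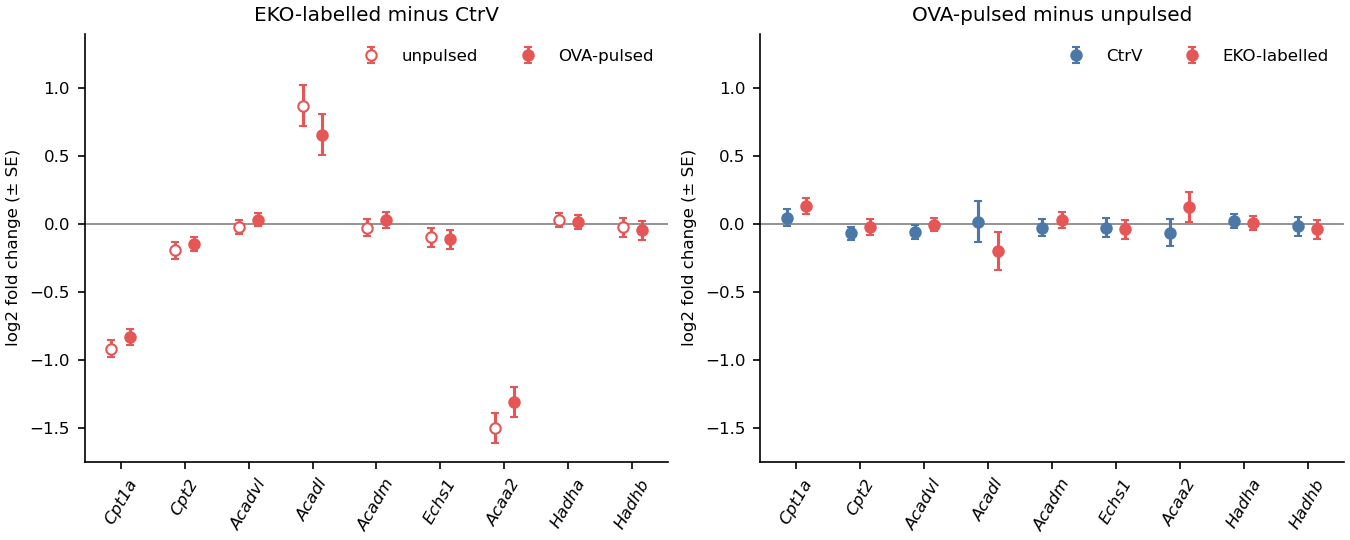
Log2 fold change with its SE for the 9 enzymes other than Hadh, between lines (left, open points unpulsed, filled points OVA-pulsed) and between OVA-pulsed and unpulsed cells of each line (right). Acaa2, Cpt1a and Acadl lie far from 0 on the left, and all points on the right lie within 0.20 of 0.

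Levels of different enzymes were compared per kilobase of the principal transcript. In unpulsed CtrV cells the order was Acadl (100.2 ± 7.41 CPM per kb), Hadha (29.8 ± 1.26), Acadvl (25.6 ± 1.42), Echs1 (24.3 ± 2.63), Acadm (21.6 ± 1.45), Acaa2 (14.9 ± 0.949), Cpt1a (11.2 ± 0.676), Hadhb (10.1 ± 0.623), Cpt2 (8.6 ± 0.5) and Hadh (6.25 ± 0.288). Of neighbours in this order, Acadvl overlapped with Echs1 and Echs1 with Acadm, and the others did not overlap. In unpulsed EKO-labelled cells Acadl was at 186.0 ± 50.3 CPM per kb, Hadhb (9.98 ± 0.23) and Cpt2 (7.51 ± 0.41) stood above Cpt1a (5.93 ± 0.27) and Acaa2 (5.29 ± 0.614), and Hadh was last at 0.0057 ± 0.00987. Cpt1a and Acaa2 overlapped there. By the length of all annotated exons in place of the principal transcript, Acadl stayed first and Hadh last in all 4 groups, while the order between them changed. Echs1 moved from rank 4 to rank 8 in unpulsed CtrV cells. In unpulsed EKO-labelled cells Hadhb moved from rank 6 to rank 9, and its 3.1 CPM per kb of all exons then stood below Acaa2 (5.29) and Cpt1a (3.35). The place of Hadhb is uncertain also through its copies.

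OVA pulsing, which the choice of genes did not use, yielded no call among the 10 enzymes in either line. The percentage of all genes called was 0.0% in CtrV, 0.0% in EKO-labelled cells and 0.0% for the dependence of the line difference on pulsing. At an unadjusted p under 0.05, edgeR counted 231 genes in CtrV, 394 in EKO-labelled cells and 269 for the dependence, DESeq2 44, 156 and 103, and limma voom 246, 423 and 297, with 0 adjusted calls by each tool. Leaving aside Hadh, the enzymes moved by at most 0.07 (log2) with OVA in CtrV and 0.20 in EKO-labelled cells. The lowest unadjusted p was that of Cpt1a in EKO-labelled cells, 0.058 by edgeR's quasi-likelihood model, with a log2 difference of 0.13 (SE 0.06), positive in all 3 pairs. The line difference depended on pulsing by at most 0.21 (Acadl, -0.21, SE 0.20), and all adjusted p were 1. Hadh in CtrV cells was at 10.7, 11.7 and 11.1 CPM without and 9.27, 9.64 and 10.8 CPM with OVA, which overlapped (edgeR adjusted p = 1). In EKO-labelled cells Hadh had 0 to 3 counts per library with and without OVA, so that its test there (edgeR adjusted p = 1) and that of the dependence on pulsing bear on no difference.

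The wider pathway was described by 49 genes in 5 lists, of which 42 were tested. Without OVA, EKO-labelled cells had 7 of them higher and 16 lower (54.8% called, against 46.4% of all genes), and with OVA 8 were higher and 16 lower (57.1%, against 47.0%). The median log2 difference was -0.09 and -0.11, against 0.00 over all genes. Fitted on the unpulsed libraries alone, 12 genes were called in place of 23. With OVA, 14 were called in place of 24 without CtrV replicate 2 and 15 without EKO-labelled replicate 3. Without replicate 1 of both EKO-labelled groups, 4 genes were higher and 17 lower without OVA, and 5 higher and 16 lower with OVA. These fits used fewer libraries, and the share of all genes called in them is not given. The drops can therefore not be assigned to these lists.

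Of the carnitine shuttle and its malonyl-CoA control, 2 of 6 tested genes were higher and 3 lower without OVA, and as many with OVA (83.3% called in each, against 46.4% and 47.0% of all genes). The carrier Slc25a20 was higher in both. The other genes that were higher, named after their values were seen, were the carnitine transporter Slc22a5 without OVA (log2 difference 0.39, edgeR adjusted p = 0.0029, against 0.086 with OVA) and Cpt1c with OVA (0.52, adjusted p = 0.0071, against 0.11 without OVA). Crat, the mitochondrial carnitine acetyltransferase, was at 32.4 ± 0.701 CPM in unpulsed CtrV and 20.8 ± 1.82 CPM in unpulsed EKO-labelled cells, and its log2 difference was -0.64 (SE 0.06, edgeR adjusted p = 1.3e-05) without and -0.73 (SE 0.06, adjusted p = 4.1e-06) with OVA. Slc25a20, which carries acylcarnitine across the inner membrane, was at 23.7 ± 1.88 against 28.6 ± 1.5 CPM without OVA (log2 difference 0.27, SE 0.07, adjusted p = 0.0077). Acaca, which makes malonyl-CoA, the inhibitor of Cpt1a, had log2 differences of -0.31 (adjusted p = 0.0057, but 0.13 without the replicate block, with overlapping groups) and -0.44 (adjusted p = 7.0e-04). Mlycd, which removes malonyl-CoA, was lower by -0.21 and -0.20 (adjusted p = 0.038 in both), a call lost in 8 and 7 of 22 alternatives. The muscle form Cpt1b and Acacb were not tested.

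Of 8 other acyl-CoA dehydrogenases and electron transfer genes, 1 was lower without OVA and 2 with OVA, and none was higher in either condition by edgeR (12.5% and 25.0% called, against 46.4% and 47.0% of all genes). Acads, for short chains, was at 25.6 ± 1.01 and 19.9 ± 2.12 CPM without OVA (log2 difference -0.37, SE 0.08, adjusted p = 0.0029) and differed by -0.26 with OVA (adjusted p = 0.018). Etfa, an electron transfer flavoprotein subunit, differed by -0.09 (adjusted p = 0.14) and -0.13 (adjusted p = 0.044), and the second call was lost in 12 of 22 alternatives.

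Of 7 tested auxiliary mitochondrial enzymes, 5 were lower without OVA, and 4 were lower and 1 higher with OVA (71.4% called in each, against 46.4% and 47.0% of all genes, of which 21.9% were lower in each). Hsd17b10 also oxidises 3-hydroxyacyl-CoA in the mitochondrion, the step of Hadh, and acts on branched chains. It was at 27.3 ± 1.82 and 20.2 ± 0.775 CPM without OVA and at 26.4 ± 0.43 and 20.2 ± 0.359 CPM with OVA, and it fell by a log2 difference of -0.44 (SE 0.06, edgeR adjusted p = 1.6e-04) and -0.39 (SE 0.06, adjusted p = 3.2e-04). Decr1, needed for unsaturated chains, was lower by -0.24 and -0.23 (adjusted p = 0.005 and 0.0061). Acot13, a thioesterase, was lower by -0.24 and -0.22 (adjusted p = 0.02 and 0.031, lost in 6 and 7 of 22 alternatives). Acat1, the thiolase for acetoacetyl-CoA, differed by -0.17 (adjusted p = 0.088) and -0.25 (adjusted p = 0.015).

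In peroxisomes, 3 of 13 tested genes were higher and 6 lower without OVA, and 2 were higher and 6 lower with OVA (69.2% and 61.5% called, against 46.4% and 47.0% of all genes). Hsd17b4 and Ehhadh, the multifunctional enzymes that hold the hydratase and hydroxyacyl-CoA dehydrogenase activities there, differed in outcome. Hsd17b4 was at 301.5 ± 7.03 and 219.7 ± 19.9 CPM without OVA, and its log2 difference was -0.46 (SE 0.08, edgeR adjusted p = 0.0011) and, with OVA, -0.53 (SE 0.08, adjusted p = 4.3e-04). Ehhadh was at 13.3 ± 0.423 and 12.2 ± 0.833 CPM without OVA, with differences of -0.13 (SE 0.07, adjusted p = 0.12) and -0.00 (SE 0.06, adjusted p = 0.97). Crot, a carnitine octanoyltransferase, was lower by -0.39 and -0.35 (adjusted p = 9.5e-04 and 0.0014). Scp2, which holds a peroxisomal thiolase, was higher by 0.18 and 0.24 (adjusted p = 0.0077 and 0.0015). None of Hsd17b10, Hsd17b4 and Ehhadh, which also hold the activity of Hadh, was higher in EKO-labelled cells by this test.

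Among acyl-CoA synthetases and uptake genes, 2 of 8 tested were higher and 1 lower without OVA, and 3 were higher and 1 lower with OVA (37.5% and 50.0% called, against 46.4% and 47.0% of all genes). Of those called higher, Fabp5, named after its values were seen, rested on few counts. Without OVA it had 43, 6 and 3 counts in EKO-labelled libraries and 4, 2 and 6 in CtrV libraries, and these groups overlapped. Acsl1, a long-chain acyl-CoA synthetase, was at 72.8 ± 1.21 and 53.2 ± 1.9 CPM without OVA (log2 difference -0.45, SE 0.05, edgeR adjusted p = 2.1e-05) and differed by -0.55 with OVA (adjusted p = 4.9e-06). The fatty acid translocase Cd36, chosen after its values were seen, had a log2 difference of 2.16 (SE 0.43, adjusted p = 0.0019) without OVA at a low level, 0.361 ± 0.241 against 1.69 ± 0.759 CPM. Replicate 1 of the EKO-labelled cells was highest, at 2.57 CPM against 1.22 and 1.28 CPM, and without it in both groups the difference was 1.59 (SE 0.38, adjusted p = 0.0072).

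**Figure D4:**
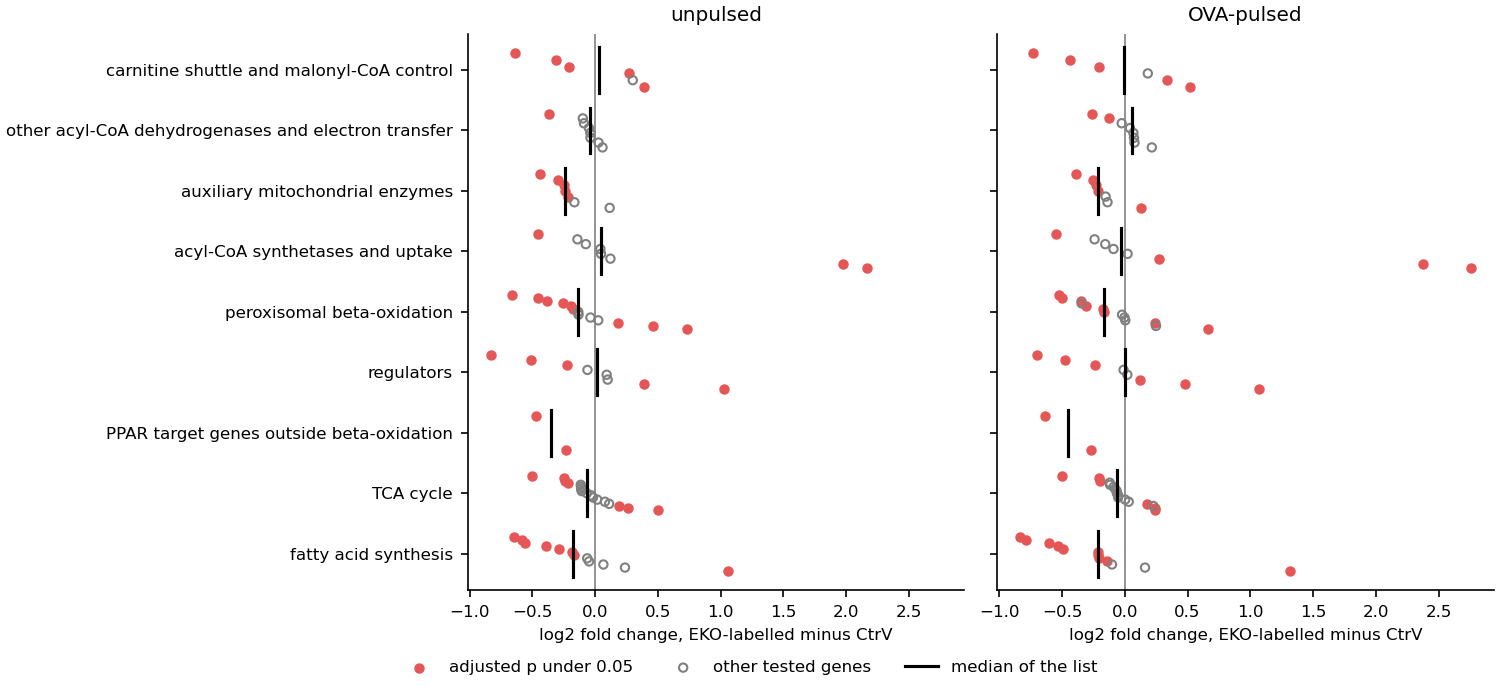
Difference between the lines (log2, EKO-labelled minus CtrV) for each tested gene of the wider lists, unpulsed (left) and OVA-pulsed (right). Filled points passed an adjusted p under 0.05, open points did not, and black bars are list medians, which lie below 0 for auxiliary mitochondrial and peroxisomal enzymes.

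Regulators of the pathway differed in both directions. Of 8 tested, 2 were higher and 3 lower without OVA, and 3 were higher and 3 lower with OVA (62.5% and 75.0% called, against 46.4% and 47.0% of all genes). Pparg, a fatty acid-sensing nuclear receptor of DCs and adipocytes, was at 12.4 ± 1.68 CPM in unpulsed CtrV and 25.4 ± 4.09 CPM in unpulsed EKO-labelled cells, a log2 difference of 1.03 (SE 0.12, edgeR adjusted p = 5.6e-05), and 1.07 with OVA (adjusted p = 3.7e-05). Its relative Ppard was higher by 0.39 and 0.48 (SE 0.05, adjusted p = 2.1e-04 and 4.2e-05). Their shared partner Rxra was lower by -0.83 and -0.70 (SE 0.13, adjusted p = 4.0e-04 and 0.001). Sirt3, a mitochondrial deacetylase, was lower by -0.51 and -0.48 (adjusted p = 0.0044 and 0.0054). Esrra, at 34.5 ± 0.855 and 33.1 ± 1.58 CPM, differed by -0.06 and -0.01 (adjusted p = 0.36 and 0.89). Ppara had 1 count in 1 library, and Ppargc1a, Ppargc1b and Prkaa2 had 0 counts in all 12 libraries, so that none of them could be compared.

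Of 7 genes listed as PPAR targets outside beta-oxidation, 2 could be tested, and both were lower, as 21.9% of all genes were in each condition. This list holds no gene of the other lists, among them Cd36, which was higher in both conditions. The 2 genes therefore give no direction for PPAR targets as a group. The lipid droplet protein Plin2 was at 45.5 ± 2.75 and 33.3 ± 7.59 CPM without OVA (log2 difference -0.47, SE 0.10, edgeR adjusted p = 0.004) and differed by -0.64 with OVA (adjusted p = 5.4e-04). Its unpulsed EKO-labelled libraries were at 24.6, 36.7 and 38.6 CPM, and without replicate 1 of both EKO-labelled groups the differences were -0.31 and -0.51 (adjusted p = 0.0026 and 1.1e-04). Ucp2, a mitochondrial carrier, was lower by -0.23 and -0.27 (adjusted p = 0.0047 and 0.0017).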

How the data were processed

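RNA sequencing libraries of 12 samples (4 groups of 3) were analysed. Per the labels and the study's methods, the authors prepared stranded mRNA libraries, aligned reads to mm10 with STAR and deposited raw counts of read ends per gene from featureCounts on Ensembl gene models, unnormalized and unfiltered. Whether strand was used in counting is not stated in the sources used here.

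Here, counts were scaled by TMM, and genes over a log2 CPM of 0 in 2 or more libraries were kept. Tests used edgeR 4.0.16 in R 4.3.3 (quasi-likelihood F test, 1 fit over all 12 libraries, group and replicate number as covariates, Benjamini-Hochberg adjustment over 14079 genes, threshold 0.05). Scripts were tested on simulated data. The pairing rests on the labels' replicate numbers and on the study's use of replicate as a covariate. Between the lines, deviations of same-numbered libraries had correlations of 0.0664, -0.00915 and 0.271 without OVA and 0.45, 0.295 and 0.298 with OVA. DESeq2 1.42.0 and limma 3.58.1 (voom) served as alternatives. Symbols and positions came from GENCODE M21 (GRCm38), promoter windows from RefSeq (GRCm38.p6), and copies from BLAST+ 2.17.0. SD refers to CPM and SE to log2 fold changes. The SE was derived from the quasi-likelihood test, as the absolute log2 fold change divided by the square root of its F statistic.

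The enzymes and the gene lists were chosen with earlier results of these data known. All 10 enzymes are named. From each wider list up to 4 genes with the smallest p with OVA were named, among those that passed the threshold with a mean log2 CPM of 1 or more and 1 direction in all pairs and in both conditions, plus the other genes acting at the step of Hadh, 6 nuclear receptors and coactivators, 3 tested neighbours on each side of Hadh and the 5 genes most like it. A gene that this rule names is not reported here. Other named genes were chosen after their values were seen. No sample column was left unused.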

Additional observations from a re-analysis of the deposited data

How the results depend on the processing

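Without the replicate number as a block, 3 enzymes were called in place of 4 in each condition (Cpt2 was lost), and 19 and 18 genes of the wider lists in place of 23 and 24 without and with OVA. Acaca without OVA, Etfa with OVA and Acot13 in both lost their calls as well, and no other of the 40 named genes with a test did. Fitted on the compared libraries alone, the wider lists had 12 calls without OVA, a fit with fewer libraries. With libraries left out, the wider lists had 16 to 24 calls without OVA and 14 to 24 with OVA, the lowest without CtrV OVA-pulsed replicate 2 (14) and EKO-labelled OVA-pulsed replicate 3 (15). The enzymes had 3 to 4 calls in both conditions. The share of all genes called in these alternative fits is not given. Among 1760 values of named genes under 22 alternatives for each condition, 1672 stayed on the same side of the threshold, 81 lost and 7 gained a call, and no called value changed its sign. With 1 library left out, further calls with OVA were lost for Acads without CtrV replicate 2 or EKO-labelled replicates 2 or 3 (adjusted p = 0.064 to 0.077), for Acat1 without CtrV replicates 2 or 3 or EKO-labelled replicate 3 (0.061 to 0.08), for Idh3a without CtrV replicate 3 or EKO-labelled replicates 1 or 3 (0.061 to 0.075), and for Mlycd and Acot13 without each of 5 OVA-pulsed libraries (up to 0.19 and 0.1). Without OVA, Mlycd lost its call without each unpulsed library but EKO-labelled replicate 1 (0.05 to 0.19), Acot13 without replicates 2 or 3 of either line (0.058 to 0.099), Dlst without CtrV replicates 1 or 2 or EKO-labelled replicate 1 (0.063 to 0.13) and Idh3a without EKO-labelled replicate 2 (0.061). Etfa with OVA lost its call without 7 of the 12 libraries taken singly (0.054 to 0.18). Mean Hadh in EKO-labelled libraries was 0.0287 CPM, 0.0281 to 0.0286 CPM with other scalings, and 0.0187 to 0.0344 CPM with a library left out (0.0187 without OVA-pulsed replicate 1). Depth limits Hadh there to a level at or under 3 counts.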

Other observations

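The tricarboxylic acid (TCA) cycle, which burns the acetyl-CoA from beta-oxidation, had 3 genes higher and 4 lower of 17 tested without OVA, and 3 of each with OVA (41.2% and 35.3% called, against 46.4% and 47.0% of all genes). Fumarase, Fh1, was at 57.9 ± 4.97 CPM in unpulsed CtrV and 40.8 ± 3.31 CPM in unpulsed EKO-labelled cells (n = 3 each), with log2 differences of -0.51 and -0.50 (SE 0.07, edgeR adjusted p = 1.9e-04 in both). Idh3a, an isocitrate dehydrogenase subunit, was lower by -0.22 and -0.21 (adjusted p = 0.011 and 0.013). Sdhd, a succinate dehydrogenase subunit, was higher by 0.26 and 0.24 (adjusted p = 0.003 and 0.0044). Dlst differed by 0.19 and 0.24 (adjusted p = 0.028 and 0.0081), and the first of these calls was lost in 6 of 22 alternatives.

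Genes of fatty acid synthesis, the opposite pathway, were mostly lower in EKO-labelled cells, 7 lower and 1 higher of 12 tested without OVA (66.7% called, against 46.4% of all genes) and 9 lower and 1 higher with OVA (83.3%, against 47.0%), where 21.9% of all genes were lower in each. The elongase Elovl5 was at 193.0 ± 5.3 and 131.5 ± 13.8 CPM without OVA (log2 difference -0.56, SE 0.06, edgeR adjusted p = 4.9e-05), and Elovl6 differed by -0.65 and -0.79 (adjusted p = 0.0011 and 2.7e-04). The desaturase Scd2 differed by -0.58 without OVA, where the groups overlapped, and by -0.84 with OVA (adjusted p = 3.0e-04 and 2.1e-05). The gene that was higher, Mecr, acts in the separate fatty acid synthesis of mitochondria, and was at 15.7 ± 0.58 and 33.0 ± 3.91 CPM without OVA (log2 difference 1.06, SE 0.10, adjusted p = 1.1e-05).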
